A study of Rattus norvegicus with 5 samples.

Results

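The genes described here are the ligands and receptors of interleukin-1 (IL-1) and tumour necrosis factor (TNF) in the dorsal horn of the rat spinal cord. They were chosen by name as the rows Il1a, Il1rn, Il1r1, Il1r2, Il1rap, Tnf, Tnfrsf1a and Tnfrsf1b of the deposited count table, and all 8 were found among its 17321 rows. The tissue was the dorsal horn of lumbar segments L4-L6, where sensory fibres of the hindlimb end. It came from rats of the Sprague Dawley strain on day 9 after surgery. One group had CCI (chronic constriction injury in common usage), a ligation of a peripheral nerve used as a model of neuropathic pain (3 libraries), and the other had SHAM surgery without the injury (2 libraries). The labels give no genotype, drug, age or sex, nor whether a library is 1 animal or a pool of animals, so p-values measure only the spread between these libraries. Ligands beyond those named below are not analysed here.

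IL-1α and TNF are inflammatory cytokines. In the spinal cord they are known mainly as products of microglia and astrocytes that raise the excitability of pain pathways after nerve injury. IL-1 binds the type 1 receptor, Il1r1, which needs the accessory protein Il1rap to signal. The receptor antagonist, Il1rn, occupies Il1r1 without signalling, and the type 2 receptor, Il1r2, is a decoy that binds IL-1 and sends no signal. TNF binds a widely expressed receptor with a death domain, Tnfrsf1a, and a second receptor without one, Tnfrsf1b, which is found mainly on immune and endothelial cells. Both IL-1 and TNF receptors feed into the transcription factor NF-κB.

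The libraries held 20053353 to 23673198 estimated counts each. Ribosomal RNA rows took 16.0% of CCI 3 and 2.18% to 2.71% of the other libraries. Neuronal genes of the dorsal horn such as Snap25 and Slc17a6 were present at a like level in all libraries, with a list sum of 3140 to 3450 CPM (counts scaled to library size). Motor neuron genes, which mark the ventral horn, were present too, with a list sum of 630, 266 and 464 CPM in CCI 1 to 3, against 1060 and 778 CPM in SHAM 1 and 2. The CCI libraries differed among themselves. The summed fibroblast list stood at 190, 948 and 800 CPM in CCI 1 to 3, against 190 and 241 CPM in SHAM 1 and 2. Values of CCI 1 against SHAM are therefore given beside the results.

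The signalling receptors Il1r1, Tnfrsf1a and Tnfrsf1b were higher after CCI. Their promoters are shown because each of these genes was higher in CCI than in SHAM. Each run is the 250 bases before the transcription start in the RefSeq promoter table (build GRCr8), 5′ to 3′ on the gene's strand, at chr9:50034133-50034382 (+) for Il1r1, chr4:159836869-159837118 (+) for Tnfrsf1a and chr5:162387412-162387661 (-) for Tnfrsf1b. Capitals mark matches, on either strand, to the motifs searched.
Il1r1: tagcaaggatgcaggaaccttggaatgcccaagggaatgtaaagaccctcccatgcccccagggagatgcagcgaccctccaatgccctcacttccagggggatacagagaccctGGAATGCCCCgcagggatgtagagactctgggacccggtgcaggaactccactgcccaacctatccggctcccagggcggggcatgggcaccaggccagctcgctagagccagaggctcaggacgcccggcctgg
Tnfrsf1a: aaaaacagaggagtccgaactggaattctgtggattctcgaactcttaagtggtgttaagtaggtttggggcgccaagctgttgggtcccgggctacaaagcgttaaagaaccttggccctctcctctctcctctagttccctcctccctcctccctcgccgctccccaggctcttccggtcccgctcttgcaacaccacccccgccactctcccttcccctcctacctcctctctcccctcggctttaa
Tnfrsf1b: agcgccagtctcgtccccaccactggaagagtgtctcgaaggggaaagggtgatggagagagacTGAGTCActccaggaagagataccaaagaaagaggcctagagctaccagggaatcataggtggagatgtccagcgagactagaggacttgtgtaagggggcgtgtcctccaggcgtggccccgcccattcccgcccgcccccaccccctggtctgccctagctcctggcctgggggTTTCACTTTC

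The Il1r1 window held 1 match to the NF-κB consensus that begins 135 bases before the start. The Tnfrsf1b window held an AP-1 match (TGANTCA) 186 bases before the start and a match to the interferon-stimulated response element (GAAA, any 2 bases, GAAA) that begins 10 bases before it. The Tnfrsf1a window held no match to these motifs, to the PU.1 core GAGGAA or to the C/EBP motif TTGNNCAA. Among 33469 promoters of this length in the table, 6.33% held the NF-κB consensus, 6.34% AP-1, 3.41% the interferon element, 23.3% GAGGAA and 5.25% TTGNNCAA. Il1rap, whose level did not pass the test, held 1 match to the NF-κB consensus, which lies in the overlapping windows of both of its 2 annotated starts. Only 1 of these windows also held the interferon element, 61 bases before its start. Among the ligands, which did not pass either, Il1a held an AP-1 match 12 bases before the start and GAGGAA 41 bases before it. Tnf held the PU.1 core on the other strand, 134 bases before the start. The Il1rn window held no match. A match is a description of these letters and not evidence of binding.

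Il1r1, Tnfrsf1a and Tnfrsf1b rose by 2.10-fold to 2.98-fold after CCI, and neither ligand, the antagonist nor the accessory chain passed the test. The difference between receptors and ligands was not itself tested, and the interval of Tnf, up to 2.26-fold, includes the fold of Tnfrsf1a. Of the 8 genes, 7 had enough counts to be tested with edgeR's quasi-likelihood test over all 13478 genes that passed its count filter. A gene was called at a Benjamini-Hochberg adjusted p of at most 0.05 over all tested genes and a fold of at least 1.5. By that rule 3 of the 7 were higher and 0 lower in CCI, against 2.59% of all tested genes higher and 0.26% lower (2.85% in either direction). The median log2 fold change was 0.22 over the 7 genes and 0.01 over all tested genes. The CPM of the groups did not overlap for 4 of the 7 higher in CCI and 2 lower, which was true of 18.6% and 18.1% of all tested genes. The cord is a mixed tissue, so more cells of a type and more RNA per cell cannot be told apart.

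**Figure D1:**
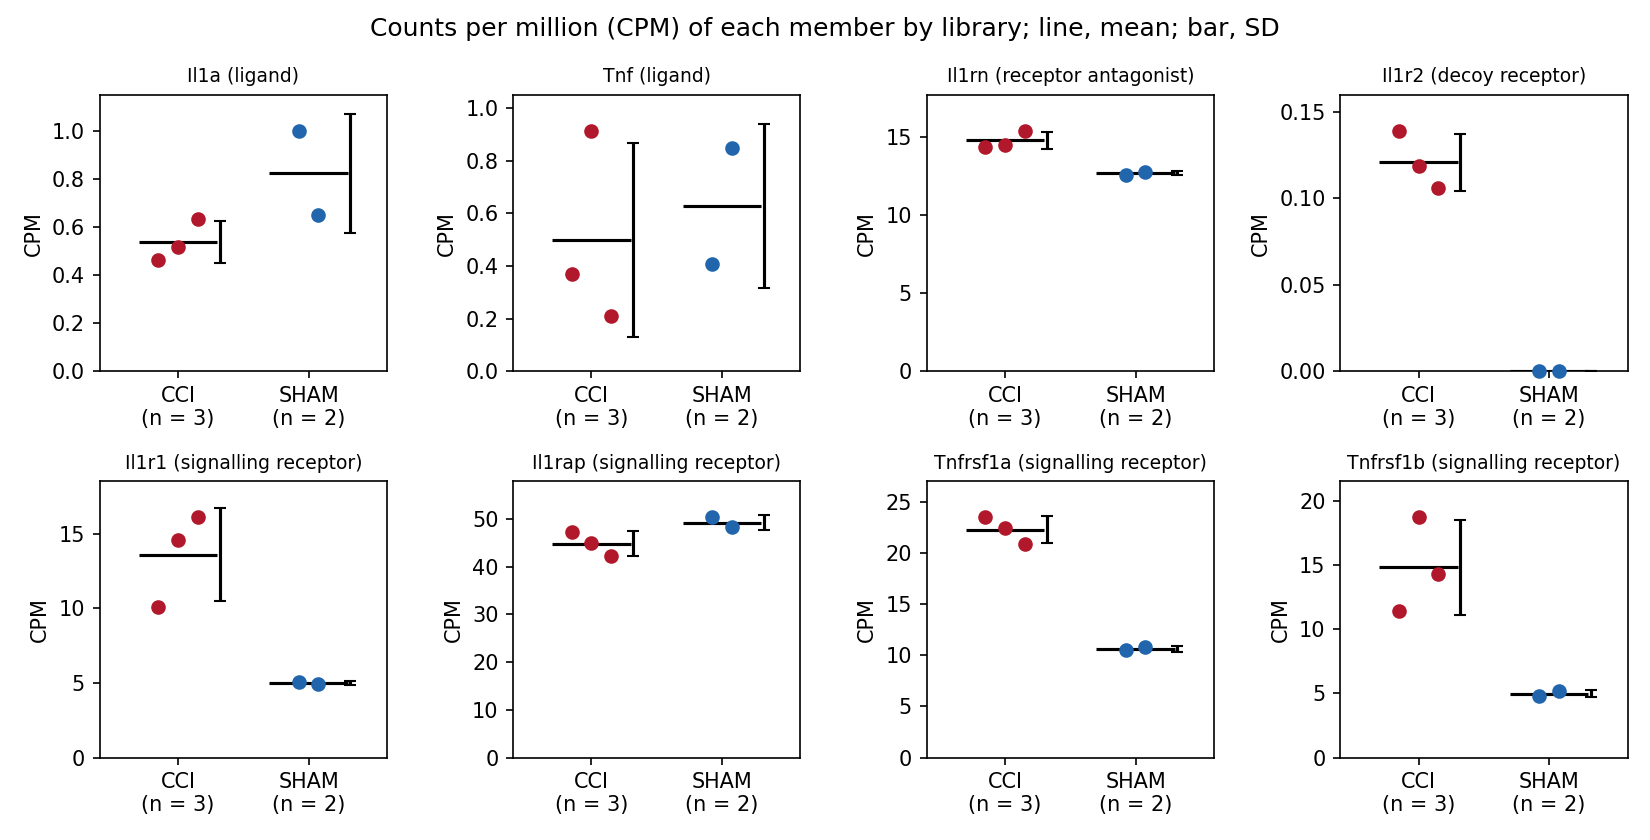
CPM of each of the 8 genes (y axis, from 0) in each library, CCI in red and SHAM in blue, with the group mean as a line and the SD as a bar. Il1r1, Tnfrsf1a and Tnfrsf1b have all 3 CCI libraries above both SHAM libraries by a wide margin, Il1rap and Il1rn differ little, and Il1a, Tnf and Il1r2 stay near or under 1 CPM.

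The ligands Il1a and Tnf were scarce in every library. Il1a, which encodes IL-1α, had 10, 13 and 12 counts in CCI 1 to 3 and 22 and 13 counts in SHAM 1 and 2. Scaled to library size that was 0.463, 0.516 and 0.636 CPM in CCI, against 1.0 and 0.650 CPM in SHAM. The SHAM libraries were both higher, SHAM 2 by little over CCI 3. The log2 fold change of Il1a was -0.62 (SE 0.42, 95% interval -1.58 to 0.33, adjusted p = 0.5 by edgeR's quasi-likelihood test), so neither a fall to 0.334-fold nor a rise to 1.26-fold lies outside the interval.

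Tnf, the gene of TNF itself, had 8, 23 and 4 counts in CCI and 9 and 17 counts in SHAM. This was 0.370, 0.913 and 0.212 CPM against 0.409 and 0.849 CPM. The groups overlapped, with the highest and the lowest library both in CCI. Its log2 fold change was -0.27 (SE 0.64, 95% interval -1.73 to 1.18, adjusted p = 0.865 by the same test), and its sign turned without CCI 3 (0.06) and without SHAM 2 (0.31). At this depth a change of Tnf within that interval was not detectable.

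The antagonist Il1rn was far more abundant than Il1a, the only IL-1 ligand among these genes. Il1rn stood at 14.4, 14.5 and 15.4 CPM in CCI, against 12.6 and 12.8 CPM in SHAM. All CCI libraries were above both SHAM libraries, but by a small step. The log2 fold change was 0.22 (SE 0.13, 95% interval -0.08 to 0.51, adjusted p = 0.452 by edgeR's quasi-likelihood test), which leaves out a rise above 1.43-fold. Il1rn is the only one of the 8 genes with fractional estimated counts, meaning that some of its reads also fit other rows, so its level is uncertain.

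The decoy receptor Il1r2 was at the edge of detection. It had 3, 3 and 2 counts in CCI and 0 and 0 in SHAM, too few for the test. A count of 0 allows up to 3 counts, or 0.137 CPM in SHAM 1 and 0.150 CPM in SHAM 2, and the CCI libraries stood at 0.106 to 0.139 CPM. No fold is given, since both groups were at or under that limit. Il1r2 is known as a gene of neutrophils. Of the 12 neutrophil genes measured 3 had enough counts to be tested, and 1 of them, Csf3r, rose, at 16.7, 17.7 and 14.6 CPM in CCI, against 3.86 and 3.60 CPM in SHAM. The list sum was 23.3, 23.5 and 23.1 CPM in CCI 1 to 3, against 9.96 and 8.44 CPM in SHAM, most of it Csf3r, Ltf and Fpr1. The defining gene S100a8 was at 0.0926, 0.0397 and 0.212 CPM in CCI and at 0 in both SHAM libraries. That is 2, 1 and 4 counts in CCI. S100a9 overlapped between the groups, with 1, 11 and 5 counts in CCI and 5 and 2 in SHAM, as did Ngp and Camp. Cxcr2, Elane and Retnlg were above both SHAM libraries in every CCI library in CPM, on 5 counts or fewer per library. Cxcr2 had 1, 5 and 3 counts in CCI and 1 and 0 in SHAM, so CCI 1 and SHAM 1 differed only through scaling. Elane and Retnlg each had 1 count in every CCI library and 0 in SHAM. The part of neutrophils was not tested.

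The signalling chain of the IL-1 receptor rose. Il1r1 had 219, 368 and 304 counts in CCI and 112 and 98 in SHAM, or 10.1, 14.6 and 16.1 CPM against 5.09 and 4.90 CPM. The lowest CCI library lay clear above both SHAM libraries, and the CCI libraries varied more (13.6 ± 3.11 CPM, SD, n = 3) than the SHAM libraries (4.99 ± 0.138 CPM, SD, n = 2). The log2 fold change was 1.45 (SE 0.22, 95% interval 0.94 to 1.95, 2.72-fold, adjusted p = 0.00979 by edgeR's quasi-likelihood test), rank 173 of all tested genes by p.

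Its partner did not follow. Il1rap, the accessory protein without which Il1r1 does not signal, was at 47.3, 44.9 and 42.1 CPM in CCI, against 50.3 and 48.2 CPM in SHAM. Both SHAM libraries were slightly higher. The log2 fold change of -0.14 (SE 0.10, 95% interval -0.37 to 0.10, adjusted p = 0.551 by the same test) leaves out a fall below 0.771-fold and a rise above 1.07-fold. Within each library, where scaling cancels, there were 0.214, 0.325 and 0.383 counts of Il1r1 per count of Il1rap in CCI and 0.101 and 0.102 in SHAM. The log2 ratio was higher in CCI by 1.56 (two-sided exact permutation p = 0.1, adjusted p = 0.3 over 3 ratios), where 0.1 is the smallest p that the 10 splits of 5 libraries allow.

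Both TNF receptors rose. Tnfrsf1a had 508, 568 and 395 counts in CCI and 230 and 217 in SHAM. It was the steadiest of the 3 called receptors, at 23.5, 22.5 and 20.9 CPM in CCI (22.3 ± 1.29, SD, n = 3), against 10.5 and 10.8 CPM in SHAM (10.6 ± 0.274, SD, n = 2). The log2 fold change was 1.07 (SE 0.13, 95% interval 0.77 to 1.36, 2.10-fold, adjusted p = 0.00279 by edgeR's quasi-likelihood test), rank 96 by p.

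Tnfrsf1b had 246, 471 and 269 counts in CCI and 105 and 103 in SHAM. Its level was 11.4, 18.7 and 14.3 CPM in CCI (14.8 ± 3.68, SD, n = 3), against 4.77 and 5.15 CPM in SHAM (4.96 ± 0.264, SD, n = 2). CCI 2 was highest, and CCI 1, the lowest of the injured libraries, was still above SHAM. The log2 fold change was 1.58 (SE 0.23, 95% interval 1.06 to 2.10, 2.98-fold, adjusted p = 0.00729 by edgeR's quasi-likelihood test), rank 145 by p.

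The rise of Tnfrsf1b was not shown to exceed that of Tnfrsf1a. There were 0.484, 0.829 and 0.681 counts of Tnfrsf1b per count of Tnfrsf1a in CCI and 0.457 and 0.475 in SHAM. CCI 1 was close to the SHAM libraries and the other CCI libraries were above them. The mean log2 ratio differed by 0.48 (two-sided exact permutation p = 0.2, adjusted p = 0.3 over 3 ratios). For Il1r1 per count of Tnfrsf1a the values were 0.431, 0.648 and 0.770 in CCI and 0.487 and 0.452 in SHAM. These overlapped (log2 difference 0.35, exact permutation p = 0.4, adjusted p = 0.4).

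**Figure D2:**
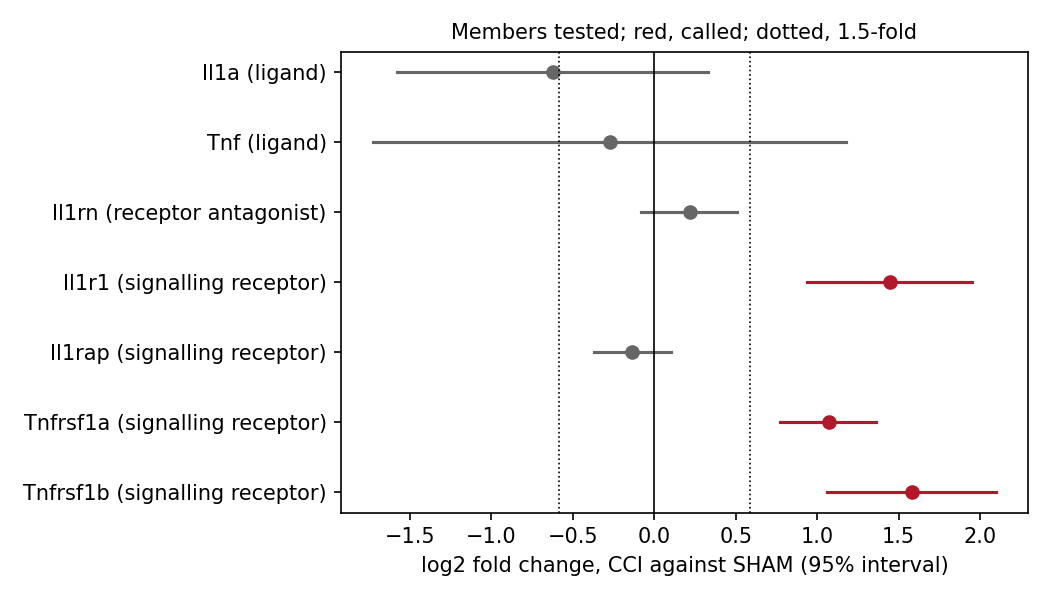
Log2 fold change of CCI against SHAM (x axis) with its 95% interval for the 7 tested genes, those called in red, with dotted lines at a fold of 1.5. The intervals of Il1r1, Tnfrsf1a and Tnfrsf1b lie above the dotted line, those of Il1rn and Il1rap are narrow and cross 0, and those of Il1a and Tnf are wide.

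The 3 receptor calls depended on having both control libraries. Without SHAM 1 the log2 fold changes were 1.47 for Il1r1, 1.04 for Tnfrsf1a and 1.52 for Tnfrsf1b, with adjusted p of 0.169, 0.0814 and 0.176 by edgeR's quasi-likelihood test. Without SHAM 2 they were 1.41, 1.09 and 1.62, with adjusted p of 0.152, 0.0608 and 0.125. In both cases 0 of the 3 genes passed, and over all genes 61 and 78 were called instead of 384.

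Levels of different genes can be compared per transcript length in the authors' deposited TPM values (counts divided by transcript length and scaled, further adjusted by trimmed mean of M-values). Il1rap was the most abundant of the 8 in every library, at 25 ± 1.43 TPM (SD, n = 3) in CCI and 27.3 ± 1.12 TPM (SD, n = 2) in SHAM. In SHAM the order below it was Il1rn (8.56 ± 0.0410), Tnfrsf1a (6.44 ± 0.131), Il1r1 (3.72 ± 0.129) and Tnfrsf1b (2.12 ± 0.106), with no overlap between neighbours. The ligands followed below 1 TPM, and their order differed between the 2 SHAM libraries, so Il1a and Tnf were not separated. Il1r2 was listed at 0 in SHAM.

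After CCI the order of the middle genes changed. Tnfrsf1a (13.8 ± 0.724 TPM, SD, n = 3) now stood above Il1rn in all 3 CCI libraries, where Il1rn had been above it in both SHAM libraries. Il1r1 (10.3 ± 2.43 TPM) and Il1rn (10.1 ± 0.410 TPM) overlapped: Il1r1 was lower in CCI 1 and higher in CCI 2 and CCI 3. Tnfrsf1b remained below them at 6.43 ± 1.63 TPM.

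Per length, the receptors were higher relative to the ligands and to the IL-1 antagonist in CCI than in SHAM. The sum of Il1r1, Tnfrsf1a and Tnfrsf1b was 26.9, 33.3 and 31.5 TPM in CCI and 12.2 and 12.4 TPM in SHAM. The sum of Il1a and Tnf was 0.600, 1.08 and 0.595 TPM in CCI and 0.980 and 1.09 TPM in SHAM, which overlapped. There were 1.29, 0.897 and 0.863 TPM of Il1rn per TPM of Il1r1 in CCI and 2.24 and 2.36 in SHAM, and no CCI library reached the SHAM values, with the Il1rn level uncertain as above. This last ratio was chosen after the values were seen and is given with no test. Tnfrsf1b made up 25.5%, 36.9% and 32.5% of the TPM of both TNF receptors in CCI and 24.3% and 25.1% in SHAM.

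**Figure D3:**
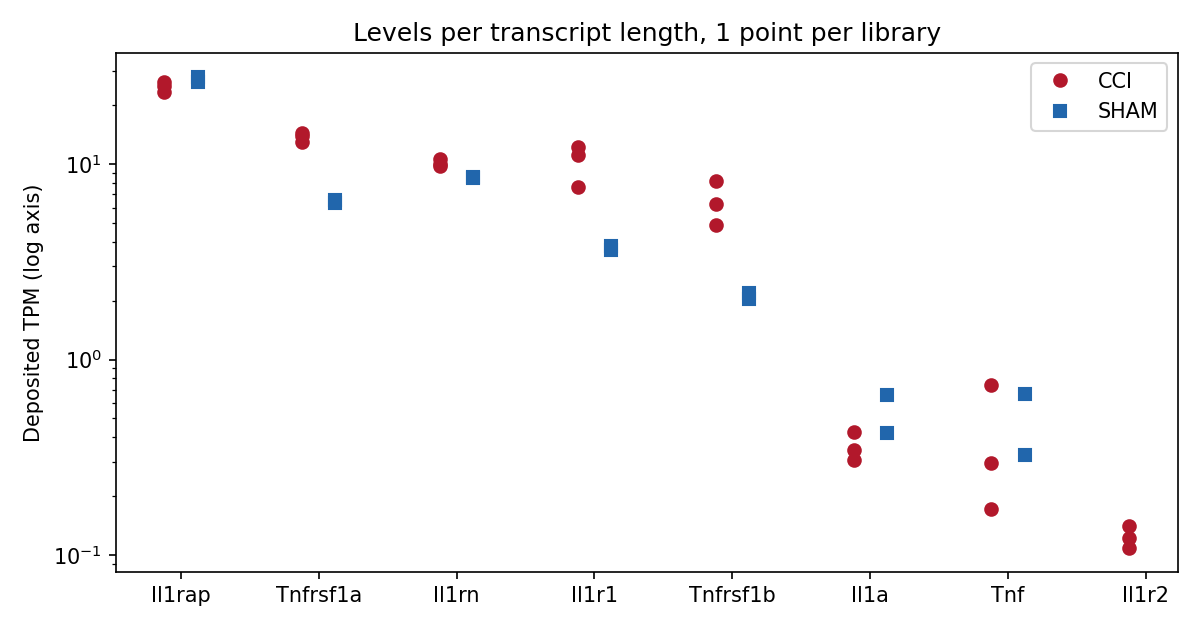
Deposited TPM (log axis) of each gene, 1 point per library, CCI as red circles and SHAM as blue squares. Il1rap is highest in both groups, Tnfrsf1a, Il1r1 and Tnfrsf1b are higher in CCI, and the ligands lie below 1 TPM. Il1r2 is listed at 0 in SHAM and has no SHAM point on the log axis.

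Many microglial genes rose with the receptors. The summed microglia list (17 genes measured, led by Csf1r and C1qa) was 1370, 1500 and 1340 CPM in CCI, against 467 and 540 CPM in SHAM, and 11 of its 17 tested genes were called higher, against 2.59% of all tested genes. Relative to the SHAM mean that is 2.72, 2.97 and 2.67 in CCI 1 to 3, beside 2.03, 2.93 and 3.23 for Il1r1, 2.21, 2.12 and 1.97 for Tnfrsf1a and 2.30, 3.77 and 2.88 for Tnfrsf1b. The part of microglial RNA in the receptor results was not tested. Fewer genes of other cell types were called higher. In the motor neuron list 0 of 10 tested genes were called higher and 5 lower, against 0.26% of all tested genes lower. Its median log2 fold change was -1.25. The list of monocytes and border macrophages was at 1.47, 3.55 and 2.12 of the SHAM mean, with 2 of 9 tested genes higher. Its sum rests largely on Vcan and Cd74, neither of which was called. Vcan made up 85.1 and 86.2 of its 122 and 127 CPM in SHAM 1 and 2. Cd74 made up 43.4, 251 and 71.6 of its 183, 441 and 263 CPM in CCI 1 to 3. The list of T and B lymphocytes was at 1.19, 4.64 and 1.89 of the SHAM mean (0 of 3 called) and the endothelial list at 1.09, 1.34 and 1.24 (0 of 11 called). The astrocyte list was at 1.40, 1.18 and 1.11. Of its 12 tested genes 1 was called higher, the filament gene Gfap (2.05-fold, adjusted p = 0.0138 by edgeR's quasi-likelihood test), and 1 lower, Slc7a10. Gfap made up 5110, 3970 and 3490 of the 11800, 9920 and 9340 CPM of this list in CCI 1 to 3. In SHAM 1 and 2 Gfap made up 2100 and 1980 of 8450 and 8400 CPM. The median log2 fold change of the list was -0.09, with 5 of 12 genes positive, against 51.9% of all tested genes. In the lymphocyte list the defining gene Cd3e was at 0, 2.22 and 0.477 CPM in CCI, against 0 in both SHAM libraries, and the part of these cell types was not tested.

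Fibroblast genes were high in 2 of the 3 CCI libraries only, at 0.881, 4.4 and 3.71 of the SHAM mean in CCI 1 to 3. In CCI 1, where the fibroblast list was at the level of SHAM, all 3 receptors were above both SHAM libraries, and Il1r1 and Tnfrsf1b were at their lowest among the CCI libraries. The part of fibroblast RNA was not tested. With CCI 2 and CCI 3 left out, CCI 1 against SHAM gave log2 fold changes of 1.01 for Il1r1 (adjusted p = 0.0329), 1.13 for Tnfrsf1a (adjusted p = 0.00255) and 1.19 for Tnfrsf1b (adjusted p = 0.0109) by edgeR's quasi-likelihood test, in which the lone CCI library is assumed to vary like SHAM. With the mean level of Schwann cell genes as a covariate, Tnfrsf1a remained called (1.14, adjusted p = 0.0158), while Il1r1 (1.08, adjusted p = 0.0626) and Tnfrsf1b (1.35, adjusted p = 0.0621) did not pass. That list holds Mbp, which oligodendrocytes also make.

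**Figure D4:**
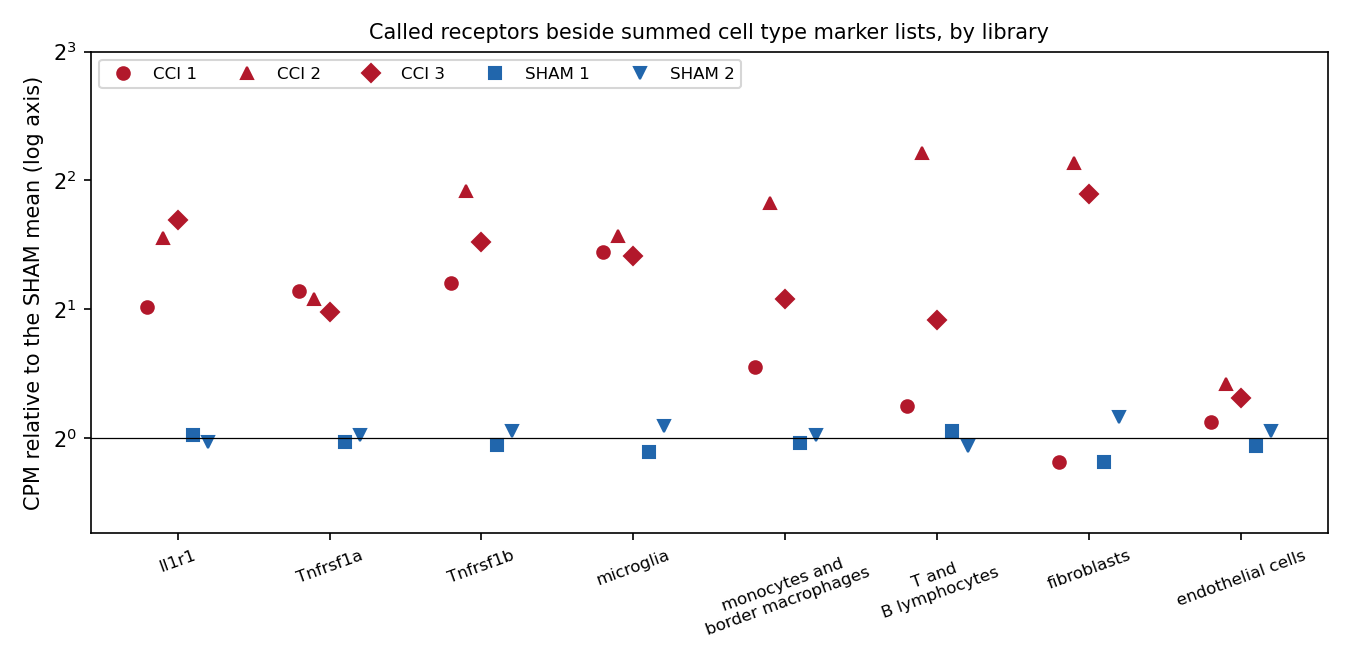
CPM of the 3 called receptors and of 5 summed marker lists in each library, relative to the SHAM mean (log axis). The microglia list is at 2.67 to 2.97 in all CCI libraries and the receptors at 1.97 to 3.77, whereas the fibroblast list is at 0.881 in CCI 1 and far above 1 in CCI 2 and CCI 3.

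The profile of Il1r1 over the libraries was closer to that of Tnfrsf1b (root mean square difference of centred log2(CPM + 1) values 0.176 over 5 libraries) than to that of Tnfrsf1a (0.285). Among 9721 tested genes with a mean of at least 10 CPM, those nearest to Il1r1 were Il6r, the binding chain of the interleukin-6 receptor (0.0630), and the leukocyte surface genes Cd48 (0.0726) and Cd53 (0.105). Nearest to Tnfrsf1a were the fructose transporter gene Slc2a5 (0.0273), the helicase gene Rtel1 (0.0361) and the cation channel gene Trpc6 (0.0648). Nearest to Tnfrsf1b were Arhgap45 (0.0656), the inflammasome sensor gene Nlrp3 (0.0680) and Dapp1 (0.0798). With 5 libraries in 2 groups this likeness rests mostly on the size of the difference between the groups.

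Genes that act with these receptors were read from 8 lists. Of 138 tested genes 14 rose (10.1%) and 0 fell, against 2.59% and 0.26% of all tested genes, with a median log2 fold change of 0.31. Leaving out SHAM 1 or SHAM 2 ended all 14 calls, and 7 genes were called with the Schwann cell covariate. The likelihood ratio test called 26, DESeq2 25, and edgeR's quasi-likelihood test 22 without CCI 1.

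Few other genes of the ligand and receptor families passed the test. Of 11 tested TNF superfamily ligands 1 rose, Tnfsf13b, the gene of the B cell survival factor BAFF, from 0.227 and 0.200 CPM in SHAM to 1.25, 1.75 and 1.27 CPM in CCI (log2 fold change 2.71, SE 0.46, adjusted p = 0.0145). That value rests on 5 and 4 counts in SHAM. None of 20 tested TNF superfamily receptors passed, with 6 at an unadjusted p under 0.05 by edgeR. Values this low were common among all 13478 tested genes, where an unadjusted p of 0.0505 by edgeR held rank 2167. Nearest to the threshold were the costimulatory receptor gene Cd40 (1.37, adjusted p = 0.0568) and Tnfrsf26 (0.72, adjusted p = 0.0840). Of 10 other tested genes of the IL-1 family none passed, with 4 at an unadjusted p under 0.05. Il1rl1, the receptor of interleukin-33, had a log2 fold change of 1.25 (adjusted p = 0.0602) and fractional counts, and Il18r1, a chain of the interleukin-18 receptor, one of 1.42 (adjusted p = 0.222). DESeq2 and the likelihood ratio test each called 1 gene of the IL-1 family and 2 of the TNF superfamily receptors.

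Among 13 genes that process or shed the ligands and receptors, 2 rose. The log2 fold change was positive for 9 of the 13, against 51.9% of all tested genes. An unadjusted p under 0.05 by edgeR's quasi-likelihood test was found for 9. Among all 13478 tested genes an unadjusted p of 0.0505 by that test held rank 2167. Among those under 0.05 were Capn1, Capn2 and Capns1, which were lower in CCI (-0.38, -0.27 and -0.38) and not called. Casp4, an inflammatory caspase, went from 4.64 and 4.85 CPM in SHAM to 12.5, 14.1 and 10.7 CPM in CCI (log2 fold change 1.39, SE 0.18, adjusted p = 0.00431). Rhbdf2, which carries the TNF-shedding protease ADAM17 to the cell surface, went from 2.18 and 1.85 CPM to 5.28, 5.32 and 5.83 CPM (1.44, SE 0.24, adjusted p = 0.0132) and has fractional counts. All 3 CCI libraries were above both SHAM libraries for Casp4 and for Rhbdf2.

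Few of the signalling genes downstream passed the test. In the IL-1 receptor list 2 of 19 rose: the adaptor gene Myd88, at 13.1, 12.3 and 12.3 CPM in CCI, against 4.68 and 6.35 CPM in SHAM (log2 fold change 1.19, adjusted p = 0.00967), and the kinase gene Map3k8 (1.62, adjusted p = 0.00373). In the TNF receptor list 1 of 27 rose, Casp8, the caspase recruited to the death domain complex, at 5.18, 8.18 and 5.46 CPM in CCI, against 2.09 and 2.50 CPM in SHAM (1.45, adjusted p = 0.0283). Among 14 NF-κB subunits, kinases and inhibitors 2 rose, both atypical IκB proteins of the nucleus: Nfkbiz (1.44, adjusted p = 0.00431) and Bcl3 (1.97, adjusted p = 0.0417). The medians of these 3 lists were 0.14, 0.25 and 0.22.

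Genes known to respond to IL-1 and TNF had the most calls of the 8 lists, 6 of 24 tested, with a median log2 fold change of 1.41. Cebpd, a transcription factor gene of the acute phase, was at 17.0, 11.2 and 12.6 CPM in CCI, against 3.27 and 3.05 CPM in SHAM (log2 fold change 2.10, adjusted p = 0.00173). Socs3, a feedback inhibitor of cytokine signalling, was at 7.36, 4.33 and 4.93 CPM against 0.818 and 1.25 CPM (2.42, adjusted p = 0.00733). Both were highest in CCI 1, unlike Il1r1 and Tnfrsf1b, which were lowest there among the CCI libraries. Icam1, an adhesion molecule for leukocytes, was at 8.65, 11.7 and 8.27 CPM against 3.0 and 3.70 CPM (1.51, adjusted p = 0.00959).

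The chemokine gene Ccl7 had 23, 14 and 15 counts in CCI and 1 and 0 in SHAM, a ratio of 33.3 with a counting interval of 5.71 to 1340 (adjusted p = 0.0205 by edgeR's quasi-likelihood test). The set of 6 is completed, beyond the 4 named by the rule, by Bcl2a1, an inhibitor of cell death (2.16, adjusted p = 0.0340), and Cebpb (0.71, adjusted p = 0.0462), which has fractional counts. Genes of this list also answer to other signals, and Icam1 and Bcl2a1 are also known from immune cells. The part of each was not tested. The number called in this list was 12 with the likelihood ratio test, 11 with DESeq2 and 3 without CCI 3.

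**Figure D5:**
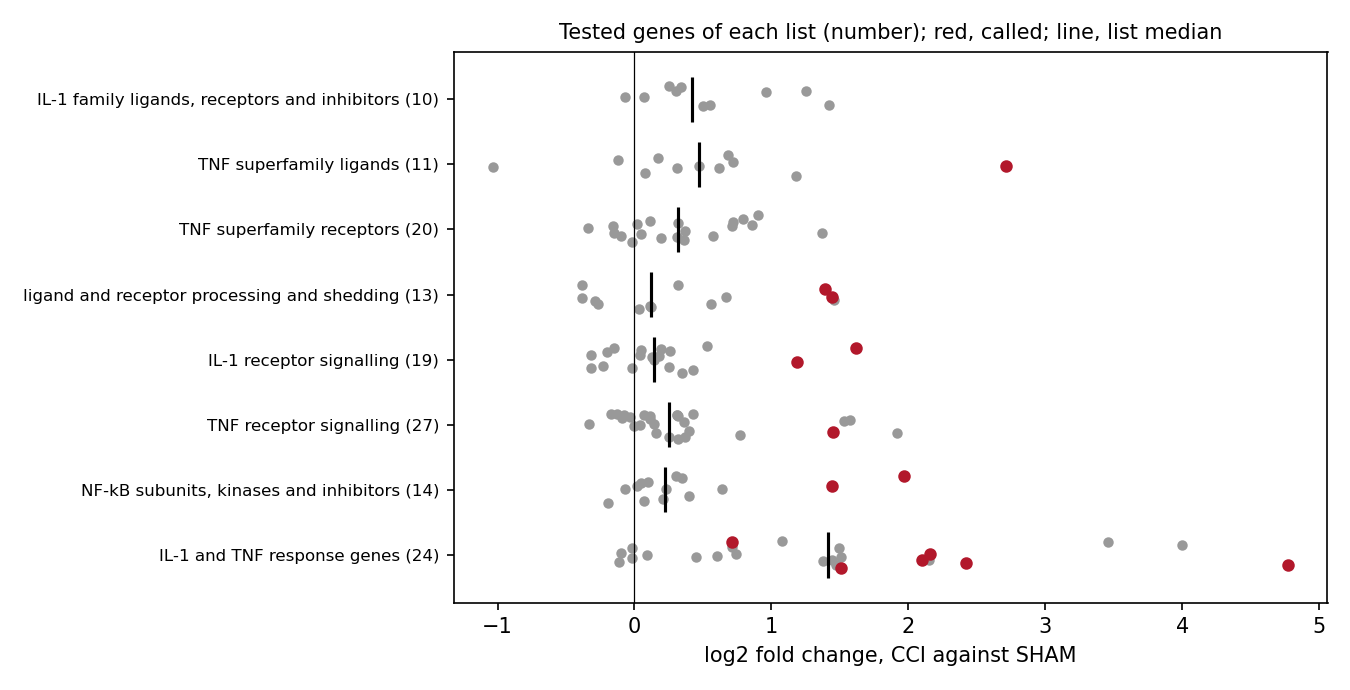
Log2 fold change (x axis) of every tested gene of the 8 lists, with the number tested in brackets, called genes in red and the list median as a line. The 6 called response genes include the point at the far right, Ccl7, whose fitted value rests on 1 count in SHAM.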

How the data were processed

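Total RNA was sequenced from 3 CCI and 2 SHAM libraries, grouped by the treatment label. Numbers within a group are accession order and do not pair libraries. The estimated counts per gene symbol were deposited by the authors. The submitters' processing notes name kallisto 0.44.0, edgeR and build rn6. The deposited TPM table had trimmed mean of M-values scaling, per the labels, and is used as a signal since its column totals differ. The sources used here do not give the annotation or any filter.

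Estimated counts were rounded. Genes passing edgeR's filterByExpr (minimum count 10; 13478 of 17321) entered a fit in edgeR 4.0.16 under R 4.3.3 (scaling by TMM, robust glmQLFit, glmQLFTest, two-sided), which leaves 3 residual degrees of freedom. Standard errors were taken from the log2 fold change and the F statistic. The 95% intervals use the t quantile of the fit and cover the spread between these libraries. The alternatives tried were DESeq2 1.42.0, the likelihood ratio test, limma-voom (limma 3.58.1), other scalings and filters, the TPM table with pseudocounts of 0.5 and 0.1, leaving out ribosomal rows or libraries, and a Schwann cell covariate. The fit was tested on simulated data. The members, lists and alternatives were chosen with earlier results of these data known. The text names the 8 members, up to 4 called genes per pathway list by p (or 2 uncalled), and the 3 nearest profiles of each called member. Named after their values were seen are Bcl2a1, Cebpb, Capn1, Capn2, Capns1 and a few cell type markers. These markers are Cd3e, S100a8, S100a9, Ngp, Camp, Cxcr2, Elane, Retnlg, Mpo, Fpr1 and Slc7a10. Promoters came from RefSeq (GRCr8), which matched 7 of the 8 members; none of its coordinates were used with the counts. Figures were drawn with matplotlib 3.10.9.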

Additional observations from a re-analysis of the deposited data

How the results depend on the processing

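Of 18 alternatives, 15 left all 3 receptors called. Leaving out 1 library at a time, 0 to 3 members were called, 61 to 763 of all genes and 0 to 22 of the list genes; the log2 fold change ran from 1.31 to 1.62 for Il1r1, 1.03 to 1.11 for Tnfrsf1a, 1.37 to 1.74 for Tnfrsf1b and -0.72 to 0.31 for Tnf, which turned to 0.06 without CCI 3 and 0.31 without SHAM 2. The loss of calls without either SHAM library was not matched when a CCI library was left out, where all 3 receptors were called; the cause was not tested. With the Schwann cell covariate 1 member, 182 genes and 7 list genes were called, with Il1r1 at 1.08 and Tnfrsf1b at 1.35, again with no test of the cause. The likelihood ratio test called 646 genes and 26 list genes, and DESeq2 614 and 25; both called the same 3 members. Il1a and Tnf were not tested with a minimum count of 30, nor Tnf without CCI 2, because they did not pass the filter. Il1a, Il1rn and Il1rap kept their sign and stayed uncalled in every alternative that gave a value. The 3 count ratios kept their sign in all 6 alternatives each. No paired analysis was possible because the labels give no replicate numbers. Depth limits Il1a, Tnf and Il1r2, which rest on 0 to 23 counts per library.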

Other observations

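Among the other neutrophil genes, Ltf and Fpr1 did not pass (log2 fold changes 0.27 and 0.13 by edgeR), and Mpo and Elane were at or below 0.159 CPM in every library.

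CCI 2 held the highest CPM of Tnf, Tnfrsf1b, Cd3e (2.22) and the antigen presentation gene Cd74 (43.4, 251 and 71.6 CPM in CCI 1 to 3, against 8.09 and 9.29 CPM in SHAM). These values are given with no explanation.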
